A study of Mus musculus with 3 samples.

Results

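The genes described here are 38 mouse genes of DNA replication and nucleotide synthesis, out of 18193 genes that had a probe set with exactly 1 gene symbol in the platform annotation. The members are a list of symbols, and all 87 probe sets that carry a member's symbol and no other were read. The cells were dendritic cells grown from the bone marrow of female C57BL/6 mice aged 6 weeks in medium with GM-CSF at 20 ng/mL, and the nonadherent cells were collected on day 7. They were then kept for 24 h with 1 µg/mL of LPS, the lipopolysaccharide of bacterial outer membranes, with 100 ng/mL of a stimulus labelled PTX, or with PBS as the control. What PTX stands for is not spelled out in the labels, and its sample is labelled as strain C57BL/7, where the LPS and PBS samples are labelled C57BL/6. Each group held 1 Affymetrix array, so no difference below has a replicate check, no test was possible and only sizes of differences are given. Nothing in the labels says whether the 3 cultures came from 1 marrow preparation, so a difference between preparations cannot be told apart from 1 between groups.

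A cell copies its genome once per division, in S phase. In G1 the origin recognition complex (Orc1, Orc6 and partners), Cdc6 and Cdt1 load the ring of Mcm2 to Mcm7 onto DNA, and geminin (Gmnn) later blocks reloading. Cdc45 and the GINS complex turn the ring into a moving helicase, behind which primase, the replicative polymerases, the sliding clamp PCNA and its loader RFC make the new strands. Ribonucleotide reductase, thymidylate synthase, thymidine kinase and dUTPase supply the deoxynucleotides. Many of these genes are textbook targets of E2F transcription factors, which are released from pocket proteins when cyclin-dependent kinases act at the G1/S boundary. In GM-CSF cultures of bone marrow, precursors divide as they give rise to dendritic cells, and mature dendritic cells divide little.

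Intensities are given as deposited, on a linear scale in arbitrary units. A difference is the difference of log2(intensity + 16), which understates the change of dim probe sets, so that -1 is a 2-fold lower and 1 a 2-fold higher value on that scale. The probe set of highest mean intensity over the 3 arrays stood for its gene, and a gene was taken as measured where this probe set was at or above 78.9, the median of all values, on at least 1 array. All 38 members were measured, 27 of them at that level on every array, whereas Cdc6, Pole, Tk1 and Chek1 reached it on the PBS array alone. The level of one gene is not set against that of another, because probe sets differ in brightness for the same amount of RNA. In such bulk samples fewer dividing cells and less RNA per cell cannot be told apart.

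The LPS array stood apart from the others. Its median intensity was 65.3, against 86.9 on the PTX array and 85.7 on the PBS array, and the 3′ over 5′ signal ratio for 18S rRNA was 1.95 (LPS), 0.198 (PTX) and 0.26 (PBS). For beta-actin that ratio came to 1.39 (LPS), 1.40 (PTX) and 1.33 (PBS). For 18 probe sets of added bacterial hybridization controls the median difference from PBS was 0.20 (log2) in LPS and 0.01 in PTX. All 10 dendritic cell markers listed were measured, and they summed to 32818 (LPS), 23859 (PTX) and 20389 (PBS), and 8 of 10 lay above 0 in LPS against PBS and 9 of 10 in PTX against PBS. Cd80, Ccr7, Flt3 and Cd86 differed from PBS by 1.43, 1.39, 1.33 and 1.01 in LPS and by 0.08, 0.74, 1.78 and 0.72 in PTX. Itgax (CD11c) was lower, at 1691 (LPS), 1294 (PTX) and 2383 (PBS). Every value below that involves LPS rests on the LPS array, and the PBS array is shared by both comparisons with PBS. The part of these array differences in the results was not tested.

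Dendritic cells kept with LPS had lower levels of replication genes than cells kept with PBS. Of the 38 members, 15 (39.5%) were at least 2-fold lower and none was at least 2-fold higher, and 36 lay below 0. Over all 12299 measured genes, 13.0% were at least 2-fold lower in LPS against PBS and 6.50% at least 2-fold higher, and 56.0% lay below 0. The members' median log2 difference was -0.72, against -0.08 over all measured genes, with a range from -2.18 (Rrm2) to 0.34 (E2f1). The 15 lower members were Mcm2, Mcm3, Mcm5, Mcm7, Mcm10, Cdc6, Pola1, Prim1, Pole, Rrm1, Rrm2, Dut, Ccne2, Chek1 and Uhrf1. The count depended on the scaling: with each array centred on its median, 6 of 38 members and 8.37% of all genes were at least 2-fold lower, and the members' median was -0.39 beside 0.27 for all genes. Relative to the median of all genes, the members' median lay between -0.70 and -0.51 over the 9 alternatives tried. The signs of Cdc45, Cdt1, Orc1, Pcna, Rpa2 and E2f1 turned under at least 1 of them.

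Cells kept with PTX had lower levels of replication genes than cells kept with PBS too. At least 2-fold lower values were seen in 16 of 38 members (42.1%) and at least 2-fold higher values in none, and 34 lay below 0. Of all measured genes 2.37% were 2-fold lower or more, 3.04% were 2-fold higher or more and 49.3% lay below 0. The median log2 difference of the members was -0.83, against 0.01 over all measured genes, with a range from -2.43 (Rrm2) to 0.19 (Cdc45). The 16 lower members were Mcm2, Mcm3, Mcm5, Mcm6, Mcm7, Prim1, Lig1, Rpa2, Rrm1, Rrm2, Tk1, Dut, Ccne2, Chek1, Brca1 and Uhrf1. The count was 16 of 38 again when probe sets and measured genes were chosen without the LPS array, and also with median centring and with quantile normalization, but 10 of 38 with a pseudocount of 64 and 10 of 34 with the mean over all probe sets of a gene. The signs of Cdc45 and E2f1 turned under at least 1 alternative.

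**Figure D1:**
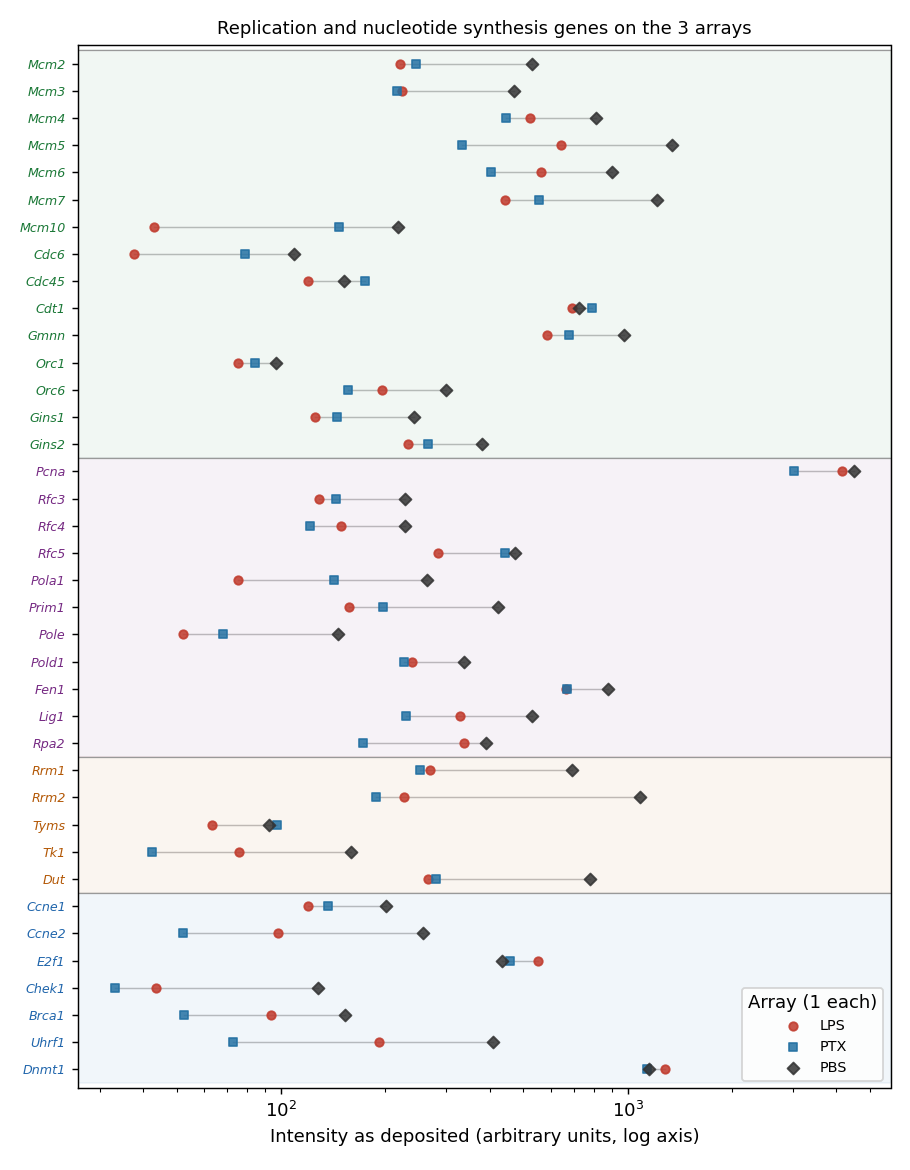
Intensity of the representative probe set of each of the 38 members (log axis, arbitrary units) on the LPS (red circles), PTX (blue squares) and PBS (dark diamonds) arrays, 1 array each, with genes grouped and coloured by role. The PBS point lies to the right of both others for most genes, and Cdc45, Cdt1, Tyms, E2f1 and Dnmt1 are the exceptions.

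The helicase ring showed lower values in all subunits after either stimulus, though not all were 2-fold apart. In LPS against PBS 4 of the 6 subunit genes were at least 2-fold lower (median -1.03), and in PTX against PBS 5 of 6 were (median -1.09). Among all measured genes 13.0% and 2.37% were. Mcm2 read 221 (LPS), 245 (PTX) and 530.2 (PBS), log2 differences of -1.20 for LPS and -1.07 for PTX. Mcm5 read 643, 332 and 1346 on the LPS, PTX and PBS arrays, so its difference was -1.05 for LPS and -1.97 for PTX. Mcm7 read 443, 556 and 1218 (-1.43 for LPS, -1.11 for PTX). For each of these genes both stimulated arrays were below the PBS array, and for Mcm5 the PTX array was the lowest. Mcm6 read 561 (LPS), 404 (PTX) and 904 (PBS), differences of -0.67 and -1.13, and Mcm4 read 523, 447 and 808 (-0.61 and -0.83). Mcm4 thus stayed within 2-fold in both comparisons. Mcm3 read 224 (LPS), 216 (PTX) and 469 (PBS), with differences of -1.02 and -1.06 that lie next to the 2-fold line.

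Other probe sets of the ring genes gave lower values in most cases. Of the 4 other measured probe sets of Mcm3, 1 was higher in LPS than in PBS (187 against 97.3, a difference of 0.84), and the differences of its probe sets ran from -1.09 to 0.84 for LPS and from -1.07 to -0.46 for PTX. The 4 measured probe sets of Mcm7 lay between -1.43 and -0.61 for LPS and between -1.28 and -0.90 for PTX. The other measured probe set of Mcm5 differed by -0.81 for LPS and by -1.56 for PTX, and that of Mcm2 by -1.07 and -1.05.

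The promoters of Mcm3, Mcm5, Mcm6 and Mcm7 are shown because they carry words that match the E2F consensus, a feature the choice of members did not use. Of the other ring genes, Mcm2 held no such word and Mcm4 had no promoter entry. The sequences come from RefSeq (GRCm38.p6), run 5′ to 3′ from 250 bases before to 50 bases after the annotated start on the gene's strand, and capitals mark the E2F words TTTCCCGC, TTTCGCGC, TTTGCCGC and TTTGGCGC and their reverse complements.
Mcm3, chr1:20820263-20820562, minus strand: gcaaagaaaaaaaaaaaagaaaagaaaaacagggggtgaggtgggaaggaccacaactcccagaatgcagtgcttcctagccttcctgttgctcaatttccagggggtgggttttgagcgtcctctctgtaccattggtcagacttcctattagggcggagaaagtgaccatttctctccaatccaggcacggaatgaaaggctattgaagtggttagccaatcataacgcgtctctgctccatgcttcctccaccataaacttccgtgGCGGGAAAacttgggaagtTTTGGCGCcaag
Mcm5, chr8:75109259-75109558, plus strand: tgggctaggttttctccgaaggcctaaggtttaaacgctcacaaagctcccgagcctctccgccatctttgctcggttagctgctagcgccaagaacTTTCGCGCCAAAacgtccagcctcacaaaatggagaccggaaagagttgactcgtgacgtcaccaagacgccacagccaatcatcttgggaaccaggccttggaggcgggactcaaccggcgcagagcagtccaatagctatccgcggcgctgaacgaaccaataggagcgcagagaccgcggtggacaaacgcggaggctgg
Mcm6, chr1:128359656-128359955, minus strand: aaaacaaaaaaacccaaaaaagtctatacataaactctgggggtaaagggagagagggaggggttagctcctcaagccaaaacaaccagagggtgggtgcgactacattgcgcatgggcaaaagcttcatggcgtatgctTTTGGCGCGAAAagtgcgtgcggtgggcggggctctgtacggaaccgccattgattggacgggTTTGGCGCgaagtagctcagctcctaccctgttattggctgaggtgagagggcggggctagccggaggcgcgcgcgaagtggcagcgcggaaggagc
Mcm7, chr5:138171834-138172133, minus strand: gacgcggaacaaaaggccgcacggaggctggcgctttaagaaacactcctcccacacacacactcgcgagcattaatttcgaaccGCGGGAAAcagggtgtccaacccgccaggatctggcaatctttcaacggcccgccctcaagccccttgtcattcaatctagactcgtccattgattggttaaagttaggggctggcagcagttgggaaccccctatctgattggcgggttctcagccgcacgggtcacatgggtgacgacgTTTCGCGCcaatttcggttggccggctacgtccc
The Mcm7 entry is the upstream of 2 annotated starts, and the other start had no match.

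Of the 38 members 32 had an entry in the promoter table, and 13 of these (40.6%) held an E2F word on either strand in at least 1 promoter, against 2.61% of the 27025 genes of the table. Mcm4, Gins1, Gins2, Gmnn, Pole and Ccne2 had no entry. The 13 with a word were Mcm3, Mcm5, Mcm6, Mcm7, Cdc6, Cdt1, Orc1, Rfc3, Pola1, Pold1, Lig1, Uhrf1 and Dnmt1. They held 20 matches, of which 4 (in Mcm5 and Mcm6) shared bases with another E2F word and 1 (in Mcm7) shared bases with a CCAAT word. The CCAAT box, a short motif of many promoters, was found in 19 of 32 members (59.4%) and 41.1% of all genes. TTTGAA, the core of the CHR element known from promoters of mitotic genes, was found in 4 of 32 members (12.5%) and 20.2% of all genes. Among 44 mitosis and kinetochore genes with an entry, 3 (6.82%) held an E2F word and 32 (72.7%) the CHR word. A match is a description of letters and does not show that a factor binds there.

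The differences of members with and without an E2F word are given side by side, with no test between them. For the 13 genes with a word the medians were -0.76 (LPS against PBS) and -0.83 (PTX against PBS), and for the 19 without they were -0.67 and -0.87. At least 2-fold lower values were seen in 6 of 13 with a word and 7 of 19 without in LPS against PBS, and in 6 of 13 and 9 of 19 in PTX against PBS. The shares over all measured genes were 13.0% for LPS and 2.37% for PTX.

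**Figure D2:**
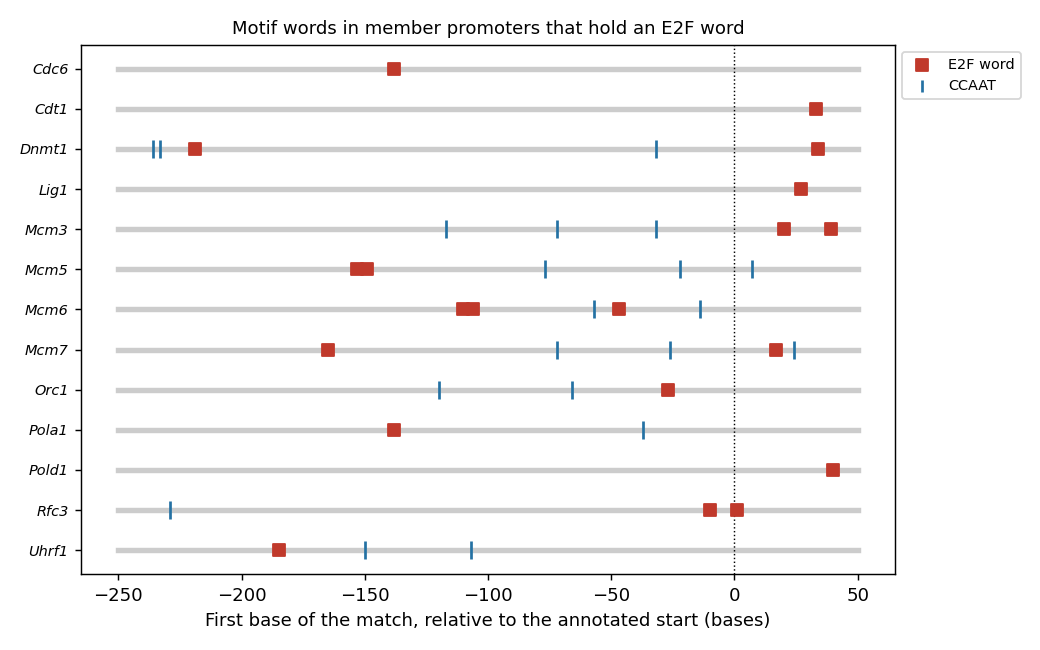
Positions of E2F words (red squares) and CCAAT words (blue bars) in the 13 member promoters that hold an E2F word, with the first base of each match relative to the annotated start (0, dotted line) on the x axis. The grey bars span the 300 bases searched. Mcm5 and Mcm6 each hold an overlapping pair of E2F words, and Mcm6 holds another word apart from its pair.

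Licensing and helicase activation genes differed from one another. With the ring they made up 15 members, of which 6 were at least 2-fold lower in LPS against PBS (median -0.73) and 5 in PTX against PBS (median -0.67). That low were 13.0% (LPS) and 2.37% (PTX) of all measured genes. Mcm10, which helps start the assembled helicase, read 43.0 (LPS), 148 (PTX) and 218 (PBS), a difference of -1.99 for LPS and of -0.51 for PTX. Cdc6, the loader of the ring, read 37.6 on the LPS array, 78.6 on the PTX array and 109 on the PBS array (-1.23 and -0.41). In these genes the LPS array was the lowest, and each had 1 measured probe set. Cdt1, the partner of Cdc6 in loading, read 691 (LPS), 791 (PTX) and 724 (PBS), with differences of -0.07 and 0.12. Its inhibitor Gmnn read 585, 679 and 978 on the LPS, PTX and PBS arrays (-0.73 and -0.52). By these probe sets the 3 readings of Cdt1 lay close together, while geminin was highest in PBS. The other measured probe set of Cdt1 read 181 (LPS), 272 (PTX) and 238 (PBS), differences of -0.37 and 0.18. The sign of the small LPS difference of the probe set that stood for Cdt1 (-0.07) turned with median centring (0.26).

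Orc6, a small subunit of the origin recognition complex, read 195 (LPS), 156 (PTX) and 299 (PBS), differences of -0.58 and -0.87. Orc1, its largest subunit, was dim, at 75.3, 84.1 and 96.7 on the LPS, PTX and PBS arrays (-0.30 and -0.17). The remaining subunits Orc3, Orc4 and Orc5 differed by 0.17, 0.04 and 0.39 in LPS against PBS and by 0.04, 0.00 and 0.23 in PTX against PBS, and Orc2 by -0.56 and -0.41. None of the 6 was 2-fold apart in these comparisons by the probe set that stood for it, but another of Orc2 gave -1.08 for LPS. In the GINS complex, Gins1 read 126 (LPS), 145 (PTX) and 242 (PBS) and Gins2 read 233, 266 and 380.03, differences of -0.86 and -0.67 for LPS and of -0.67 and -0.49 for PTX. The other measured probe set of Gins2 gave -0.37 for LPS and -0.80 for PTX, so the order of the 2 stimuli differed between its probe sets. Gins3 and Gins4, the partners of Gins1 and Gins2, differed by 0.04 and 0.25 for LPS and by -0.10 and -0.29 for PTX. Another probe set of Gins3 gave 0.74 and 0.39. Cdc45, which joins them on the ring, read 119 (LPS), 175 (PTX) and 152 (PBS), with differences of -0.31 and 0.19, whereas its other measured probe set gave -0.71 and -0.72.

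Among the synthesis enzymes, the primase subunit Prim1 was at least 2-fold lower in both comparisons with PBS and the catalytic subunit of polymerase alpha in LPS, while the clamp was within 2-fold in both. Of the 11 clamp, polymerase and ligation genes 3 were at least 2-fold lower in LPS against PBS (median -0.67) and 3 in PTX against PBS (median -0.83). The shares over all measured genes were 13.0% for LPS and 2.37% for PTX. Pola1, the catalytic subunit of polymerase alpha, which extends RNA primers with DNA, read 75.1 (LPS), 142 (PTX) and 265 (PBS), a difference of -1.62 for LPS and of -0.83 for PTX. Prim1, the catalytic subunit of primase, read 157, 197 and 422 on the LPS, PTX and PBS arrays (-1.34 and -1.04). Its other measured probe set gave -0.86 for LPS and -1.71 for PTX, so the order of the 2 stimuli differed between the probe sets. The accessory subunits of the same complex differed less, with Pola2 at -0.23 and -0.31 and Prim2 at -0.57 and -0.22 for LPS and PTX, although another probe set of Pola2 gave -1.17 and -1.07. Pole, the catalytic subunit of the leading-strand polymerase, read 52.3 (LPS), 68.2 (PTX) and 146 (PBS), differences of -1.24 and -0.94, and its partners Pole2, Pole3 and Pole4 differed by -1.11, -0.67 and 0.43 for LPS and by -0.90, -0.33 and -0.98 for PTX. Other probe sets of Pole3 lay between 0.06 and 0.40 for LPS. Pold1, that of the lagging-strand polymerase, read 239, 227 and 337 (-0.47 and -0.54), with its partners Pold2 at -0.02 and -0.65, Pold3 at -0.20 and 0.08 and Pold4 at 0.39 and -0.04.

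Pcna, the sliding clamp, read 4149 (LPS), 3020 (PTX) and 4485 (PBS), with differences of -0.11 and -0.57. With median centring its LPS difference was 0.21, so its direction depends on the scaling. The clamp loader subunits Rfc3, Rfc4 and Rfc5 differed by -0.76, -0.56 and -0.70 in LPS against PBS and by -0.61, -0.83 and -0.09 in PTX against PBS. Rfc5 alone had a PTX reading near that of PBS, at 285 (LPS), 444 (PTX) and 473 (PBS). The other loader subunits lay nearer to 0 or above it, with Rfc1 at -0.46 and 0.22 and Rfc2 at 0.43 and 0.54 for LPS and PTX. Another probe set of Rfc1 gave -1.97 for LPS.

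Rpa2, a subunit of the protein that coats single-stranded DNA, read 336 (LPS), 173 (PTX) and 390.49 (PBS), so that only PTX was over 2-fold below PBS (-0.21 for LPS, -1.11 for PTX). Its other measured probe set gave -0.39 and -1.01. The partners Rpa1 and Rpa3 differed by -0.12 and 0.03 for LPS and by -0.66 and -0.35 for PTX. Lig1, the ligase that seals Okazaki fragments, read 328 on the LPS array, 230.07 on the PTX array and 530.5 on the PBS array (-0.67 and -1.15). Fen1, the nuclease that trims their flaps, read 662, 670.3 and 877 (-0.40 and -0.38). For Rpa2 and Lig1 the PTX array was the lowest of the 3, and for Fen1 the LPS and PTX arrays were level.

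The lowest difference of any member, in either comparison with PBS, was that of a nucleotide synthesis gene. In LPS against PBS 3 of the 5 nucleotide synthesis genes were at least 2-fold lower (median -1.31), and in PTX against PBS 4 of 5 were (median -1.42). Among all measured genes 13.0% and 2.37% were. Rrm2, the small subunit of ribonucleotide reductase that is made in S phase, read 227 (LPS), 188 (PTX) and 1086 (PBS). Its differences were -2.18 for LPS and -2.43 for PTX, and -2.43 was number 24 from the lowest of all 12299 measured genes in that comparison. The other measured probe sets of Rrm2 gave -1.89 and -0.49 for LPS and -2.25 and -0.70 for PTX, and the weakest of the 3 represented the gene once probe sets open to cross-matching transcripts were dropped. Rrm1, the large subunit, read 270 (LPS), 252 (PTX) and 693 (PBS), differences of -1.31 and -1.40, and its other measured probe set gave -0.49 and -1.37. Rrm2b, the alternative small subunit of nondividing cells, differed by -0.26 and -0.08, but another of its probe sets gave -1.78 for LPS. The Rrm2 promoter is shown because Rrm2 had the lowest difference of the members and its promoter held none of the E2F words searched. It comes from the same RefSeq table and is printed in lower case throughout.
Rrm2, chr12:24708004-24708303, plus strand: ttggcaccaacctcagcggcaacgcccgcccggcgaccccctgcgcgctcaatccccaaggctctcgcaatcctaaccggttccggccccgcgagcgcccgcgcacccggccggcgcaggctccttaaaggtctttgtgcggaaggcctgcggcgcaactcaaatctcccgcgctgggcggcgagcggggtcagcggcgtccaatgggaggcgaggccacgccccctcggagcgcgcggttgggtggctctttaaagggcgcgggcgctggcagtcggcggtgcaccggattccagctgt

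Dut, the dUTPase that keeps uracil out of DNA, read 265 (LPS), 280 (PTX) and 777 (PBS), with differences of -1.49 and -1.42. Tk1, the cytosolic thymidine kinase of dividing cells, read 75.6, 42.5 and 159 on the LPS, PTX and PBS arrays (-0.94 and -1.58). Tk2, the mitochondrial thymidine kinase, read 276 (LPS), 455 (PTX) and 315 (PBS), differences of -0.18 and 0.51, and was named after its values were seen. Tyms, the thymidylate synthase, was dim in its probe sets with 1 symbol, at 63.2 (LPS), 97.6 (PTX) and 92.6 (PBS), so that its differences of -0.45 and 0.07 say little. Readings on the PBS array were the highest for Dut and Tk1, but not for Tk2 and Tyms.

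**Figure D3:**
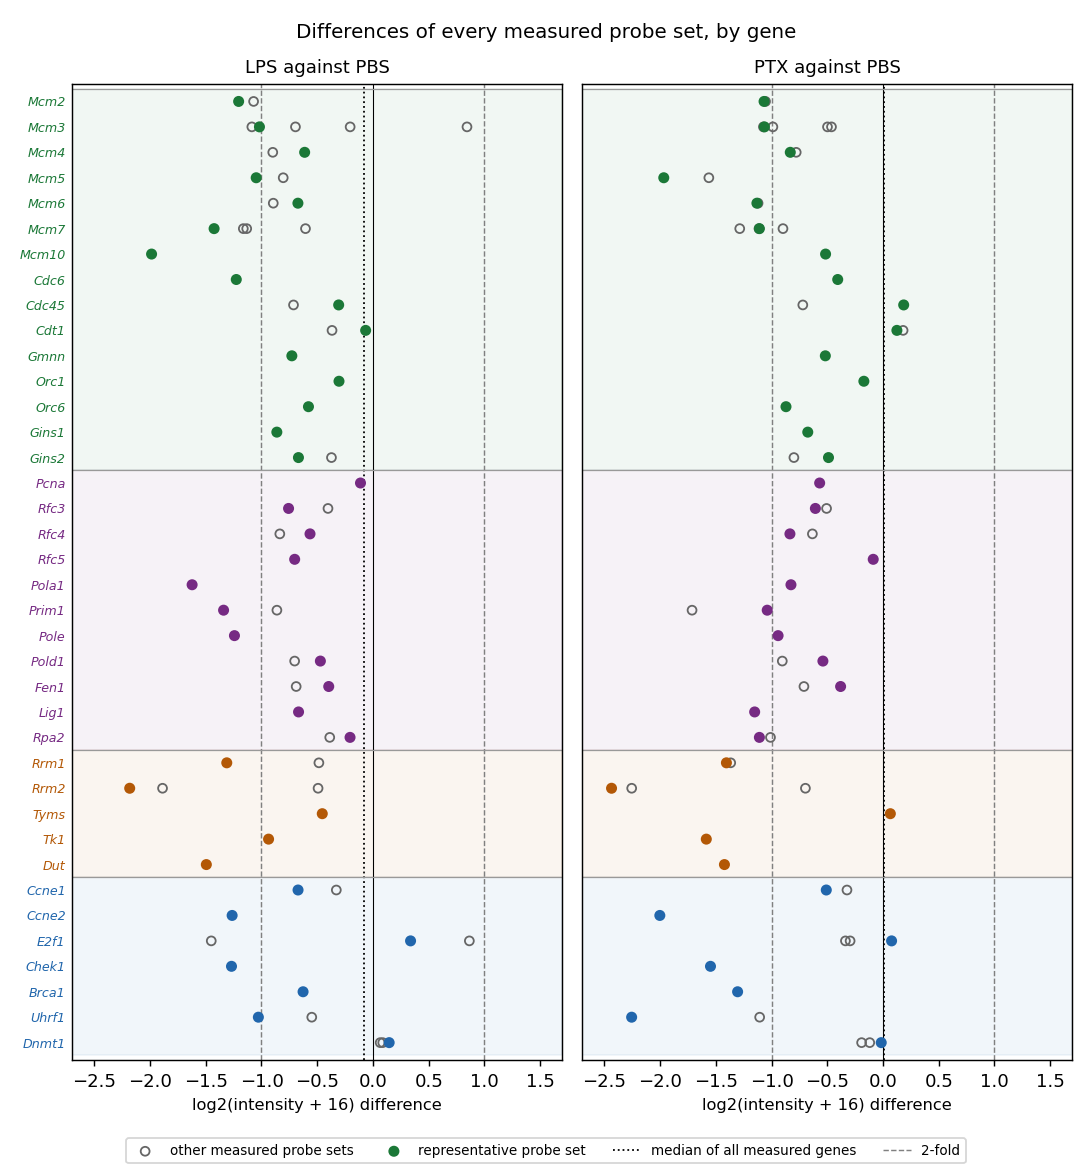
Log2(intensity + 16) differences of every measured probe set of the 38 members, LPS against PBS on the left and PTX against PBS on the right, with the representative probe set filled in the colour of its role and the others open. Dashed lines mark 2-fold and the dotted line the median of all measured genes (-0.08 and 0.01), and Mcm3 and E2f1 have probe sets on both sides of 0 for LPS.

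Regulators of the G1/S step and of the replication checkpoint were mixed. With the methylation genes they made up 7 members, of which 3 were at least 2-fold lower in LPS against PBS (median -0.67) and 4 in PTX against PBS (median -1.304). The shares over all measured genes were 13.0% for LPS and 2.37% for PTX. Ccne2, cyclin E2, read 98.0 (LPS), 52.3 (PTX) and 258 (PBS), a difference of -1.26 for LPS and of -2.002 for PTX. Ccne1, cyclin E1, read 120.07, 136 and 201 on the LPS, PTX and PBS arrays (-0.67 and -0.51). Both cyclin E genes were thus highest in PBS, with a wider gap for Ccne2. E2f1, the transcription factor itself, read 553 (LPS), 459 (PTX) and 434 (PBS), with differences of 0.34 and 0.08. Its other measured probe sets were at -1.45 and 0.86 for LPS and at -0.29 and -0.34 for PTX, so its direction is uncertain. Chek1, the kinase of the replication checkpoint, read 43.7 (LPS), 33.3 (PTX) and 128 (PBS), differences of -1.27 and -1.55. Brca1, which acts in repair of broken forks, read 93.5, 52.5 and 153 on the LPS, PTX and PBS arrays (-0.63 and -1.304). The PTX array was the lowest for Chek1, Brca1 and Ccne2.

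Uhrf1 and Dnmt1, which act together to copy DNA methylation onto the new strand, differed from each other. Uhrf1 binds hemimethylated DNA and recruits the methyltransferase, and it read 192 (LPS), 72.9 (PTX) and 408 (PBS), a difference of -1.03 for LPS and of -2.25 for PTX. The other measured probe set of Uhrf1 gave -0.55 and -1.11. Dnmt1, the methyltransferase, read 1277, 1141 and 1154 on the LPS, PTX and PBS arrays (0.15 and -0.02), and its 3 measured probe sets lay between 0.06 and 0.15 for LPS and between -0.19 and -0.02 for PTX. Uhrf1 was thus lowest in PTX, while the 3 readings of Dnmt1 lay close together. The downstream of the 2 annotated Uhrf1 promoters, from the same RefSeq table, is shown because it holds an E2F word, in capitals.
Uhrf1, chr17:56304063-56304362, plus strand: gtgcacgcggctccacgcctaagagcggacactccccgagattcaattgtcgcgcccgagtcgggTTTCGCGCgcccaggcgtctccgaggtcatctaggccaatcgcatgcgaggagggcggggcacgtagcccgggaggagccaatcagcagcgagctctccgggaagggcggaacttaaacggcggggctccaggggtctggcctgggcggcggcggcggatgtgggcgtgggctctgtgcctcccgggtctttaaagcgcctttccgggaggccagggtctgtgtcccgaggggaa

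In PTX against LPS the replication genes lay around 0. Of the 38 members 19 were above 0 and 19 below, with a median of -0.01 beside 0.09 over all measured genes. By the probe sets that stood for the genes, Mcm10 alone was at least 2-fold higher (148 in PTX against 43.0 in LPS, 1.47). By the same probe sets Uhrf1 alone was at least 2-fold lower (72.9 in PTX against 192 in LPS, -1.23). The other measured probe set of Uhrf1 gave -0.56. Mcm10 had no other measured probe set, and its LPS reading was below the level at which a gene was taken as measured. Other measured probe sets passed 2-fold for Mcm3 (-1.34) and, in both directions, for E2f1 (-1.20 and 1.16). Of all measured genes 13.7% were 2-fold higher or more in this comparison, 6.24% were 2-fold lower or more and 43.5% lay below 0. Mcm5 (-0.92) and Rpa2 (-0.90) lay just short of 2-fold lower. With median centring or quantile normalization 5 members (13.2%) were at least 2-fold lower in PTX than in LPS, where 12.6% and 8.64% of all genes were. With a pseudocount of 64 no member was at least 2-fold lower or at least 2-fold higher.

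The other probe sets give a check of the lower calls within the same arrays. In PTX against PBS 10 of the 16 lower members had another measured probe set, and in all 10 at least 1 of these was at least 2-fold lower too. In LPS against PBS 8 of the 15 had another, and in 4 of them it was at least 2-fold lower. The exceptions were Mcm5, Prim1, Rrm1 and Uhrf1, whose other probe sets lay between -0.86 and -0.49. Over the 67 measured probe sets of the members, 21 were at least 2-fold lower in LPS against PBS and 27 in PTX against PBS, where 16.3% and 2.19% of all 21805 measured probe sets were. Probe sets of 1 gene read the same RNA sample and are not replicates of the condition.

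Under the 9 ways of processing tried beside the reported one, Mcm7, Mcm10, Pola1 and Prim1 stayed at least 2-fold lower in LPS against PBS wherever they gave a value. In PTX against PBS, under those and without the LPS array, a setting chosen after seeing the data, Mcm5, Mcm7, Lig1, Tk1, Ccne2 and Uhrf1 did so. The other lower members came inside 2-fold under at least 1 alternative. Rrm2, for example, was at -0.49 for LPS and -0.70 for PTX with the _s_at, _x_at and _a_at probe sets, whose probes can match several transcripts, left out. A less bright probe set of Rrm2 that this setting also kept gave -1.89 and -2.25. For LPS, Mcm10 gave a value under only 6 of the 9 ways and Mcm7 under 8, while Pola1 and Prim1 gave one under all 9. The LPS readings of Mcm10 and Pola1 were below the level at which a gene was taken as measured. Other probe sets of Mcm10 (-0.25 and -0.08 for LPS) and Pola1 (-0.40) did not reach that level on any array.

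**Figure D4:**
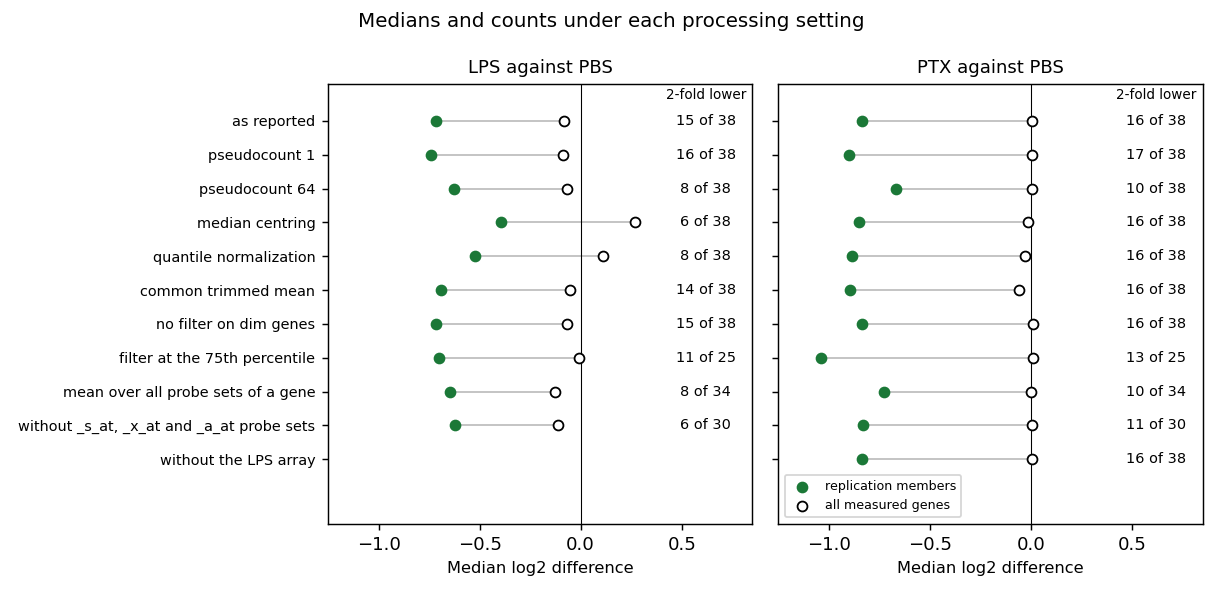
Median log2 difference of the replication members (filled) and of all measured genes (open) as reported and under each processing alternative, LPS against PBS on the left and PTX against PBS on the right, with the number of members at least 2-fold lower printed beside each. The filled point lies left of the open point in every row, while the LPS counts range from 6 to 16. The share of all genes that low for LPS, not drawn, ranged from 8.28% to 14.3%.

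Other genes of the pathway, listed apart from the members, lay nearer to 0. Both lists were chosen with earlier results of these data known, so this contrast is not a test of the pathway. Of 62 listed genes 58 had a probe set with 1 symbol and 55 were measured. In LPS against PBS 8 of 55 were at least 2-fold lower and 1 higher (median -0.20), and in PTX against PBS 6 were lower and 1 higher (median -0.31). Over all measured genes the shares were 13.0% lower and 6.50% higher for LPS, and 2.37% lower and 3.04% higher for PTX. For LPS the lower share was near that of this list, while the higher share was above it. Asf1b, a histone chaperone at the fork, read 225 (LPS), 223 (PTX) and 788 (PBS), differences of -1.74 and -1.75. Clspn, the mediator that activates Chek1, read 72.5, 74.1 and 273 on the LPS, PTX and PBS arrays (-1.71 and -1.68), but its other measured probe set gave -0.27 and -0.36. Dbf4, the activator of the kinase Cdc7, differed by -1.61 for LPS and -0.71 for PTX, and Topbp1, a scaffold of origin firing, by -1.47 and -0.71. Tipin, which protects stalled forks, differed by -0.65 for LPS and by -1.22 for PTX.

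The higher genes of that list were Supt16 and Dck. Dck, the kinase that salvages deoxycytidine, read 1411 (LPS), 3268 (PTX) and 1198 (PBS), differences of 0.23 and 1.44, and its other measured probe sets lay between 1.24 and 1.44 for PTX. Supt16, a histone chaperone subunit, was 2-fold higher in LPS (1.004), and its other measured probe set gave -2.17, so that its direction is uncertain. It is named because it was the 1 higher gene, after its values were seen. Enzymes that degrade nucleotides or nucleosides were listed apart, and 6 of 7 were measured. Samhd1, which hydrolyses deoxynucleotides, read 3146 (LPS), 5014 (PTX) and 2424 (PBS), differences of 0.37 and 1.04, with other probe sets between -0.77 and 0.99 for LPS and between 0.78 and 1.88 for PTX. Nt5c3, a nucleotidase, read 963, 1951 and 482 on the LPS, PTX and PBS arrays (0.98 and 1.98). Upp1, uridine phosphorylase, read 2715 (LPS), 346 (PTX) and 830 (PBS), so that it was higher than PBS in LPS (1.69) and lower in PTX (-1.22). Pnp, purine nucleoside phosphorylase, differed by 0.47 and 0.86 and Nt5c, another nucleotidase, by 0.54 and -0.29. For Dck, Samhd1, Nt5c3 and Pnp the PTX array was the highest of the 3.

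Among 25 E2F factors, pocket proteins and G1/S kinases, 7 were at least 2-fold lower and 3 higher in LPS against PBS (median -0.41), and 4 were lower and none higher in PTX against PBS (median -0.26). Over all measured genes 13.0% were lower and 6.50% higher for LPS, and 2.37% lower and 3.04% higher for PTX, by the same measure. Ccna2, cyclin A of S phase and mitosis, read 125 (LPS), 216 (PTX) and 1131 (PBS), differences of -3.03 and -2.30, and its other measured probe set gave -2.78 and -2.71. Ccnd2, a G1 cyclin, read 3543 in LPS, 307 in PTX and 333 in PBS (3.35 and -0.11), with 6 other measured probe sets between 0.36 and 3.61 for LPS. Myc, a growth-promoting factor, read 189, 42.8 and 226 on the LPS, PTX and PBS arrays (-0.24 and -2.04). E2f8, a repressor of the family, differed by -2.11 for LPS and -0.60 for PTX, while another probe set of it gave 0.01 and 0.15. E2f7, its close relative, differed by -0.73 and -1.53, and Fbxo5, an inhibitor of the anaphase-promoting complex, by -2.03 and -1.15. Ccnd2 was thus high on the LPS array alone and Myc low on the PTX array alone.

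Mitosis and kinetochore genes, whose products act after replication, had medians of -1.74 in LPS against PBS and -1.68 in PTX against PBS over 49 measured genes. At least 2-fold lower values were seen in 39 and 41 of them, against 13.0% and 2.37% of all measured genes. The replication members' medians were -0.72 and -0.83. With 1 array per group the difference between these lists was not tested. In the mitotic list Ube2c, a ubiquitin conjugase of mitotic exit, differed by -3.16 for LPS and -2.62 for PTX, and Nusap1, a spindle protein, by -2.69 and -2.74. Cenpe, a kinetochore motor, Ccnb2, a mitotic cyclin, and Cdc20, an activator of the anaphase-promoting complex, differed by -4.38, -3.39 and -3.12 for LPS and by -2.05, -2.06 and -1.48 for PTX. The LPS readings of Cenpe (7.72) and Ccnb2 (51.8) were below the level at which a gene was taken as measured. The other measured probe set of Cenpe gave -2.25 for LPS and -1.56 for PTX. Those of Cdc20 lay between -2.38 and -1.15 for LPS and between -1.10 and -1.02 for PTX. Birc5, survivin, and Anln, a protein of the cleavage furrow, differed by -2.65 and -2.78 for LPS and by -2.45 and -2.41 for PTX.

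**Figure D5:**
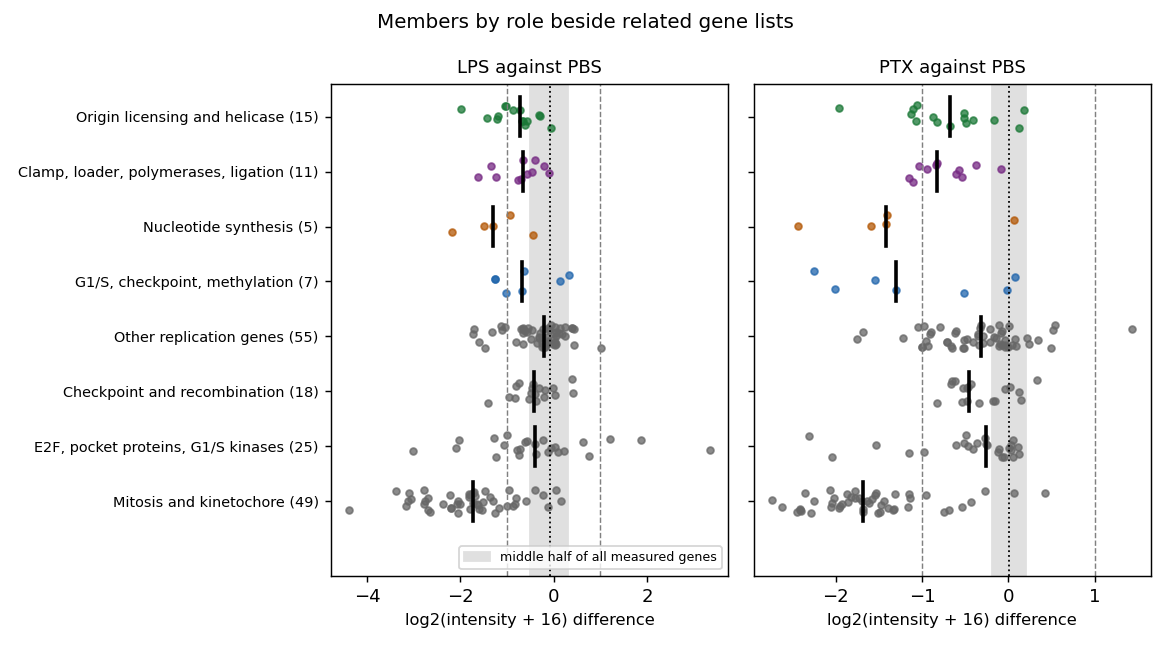
Log2(intensity + 16) differences of the members by role (coloured) and of 4 related lists (grey), each point a gene and each black bar the list's median, LPS against PBS on the left and PTX against PBS on the right, with the number of measured genes in parentheses. The grey band spans the 25th to the 75th percentile of all measured genes, dashed lines mark 2-fold, the dotted line is the median of all measured genes, and the mitotic list lies farthest to the left.

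Markers of other cells that such a culture could hold were read beside these results. The 8 immature myeloid progenitor markers with a probe set (of 9 listed) summed to 1066 (LPS), 784 (PTX) and 710 (PBS), and the 3 measured ones, Kit, Gata2 and Prtn3, were within 2-fold in both comparisons with PBS, but another probe set of Gata2 gave -1.001 for LPS. The 6 neutrophil markers with a probe set (of 7) summed to 17685, 12544 and 17444 on the LPS, PTX and PBS arrays, with S100a9 at -1.005 for LPS and -1.82 for PTX, Camp at 1.66 and -0.69, Ltf at -1.05 and -0.26, S100a8 at 0.61 and -0.60 and Ngp at 0.21 and -0.72. The 5 macrophage and monocyte markers with a probe set (of 7) summed to 24614.5, 24097 and 14548, with Fcgr1 at 2.73 and 2.79, Adgre1 at 1.40 and 0.73, Mertk at 0.21 and 1.78, Csf1r at 0.43 and 0.30 and C1qa at -0.65 and 0.89. The 5 B cell markers with a probe set (of 6) summed to 175, 339 and 961. Vpreb3 (-3.85 and -2.03) was the only measured B cell marker by the probe set that stood for the gene. It read 39.9 (LPS), 181 (PTX) and 788 (PBS), most of the PBS sum. Another probe set of Pax5 was measured and gave 1.48 for LPS and 0.17 for PTX. T cell markers (3 of 5 with a probe set) summed to 164, 149 and 144, and the 1 measured, Cd3e, differed by -0.36 and -0.19. Erythroid markers (3 of 5) summed to 107, 109.54 and 81.7, and none of them was measured. No marker was listed at 0, and the part of other cells in the replication results was not tested.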

How the data were processed

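Per the labels' protocols, each array was hybridized with labelled cRNA from 3 µg of total RNA. In the deposited table every probe set has an intensity for each sample, linear and never under 1. How the authors summarized, background-corrected and scaled these intensities is not given in the sources used here, and the number of arrays limits the precision. The log2 differences, counts and medians were computed here with Python 3.11.15, pandas 2.3.3 and numpy 2.4.6 and checked on simulated data. Of 45101 probe sets, 64 were controls, 932 had several symbols and 9160 none listed, and these were left out. A pseudocount of 16 was added before log2, and 9 alternatives were tried (pseudocount, scaling, filter and choice of probe set). The 38 member symbols are current RefSeq symbols (GRCm38.p6). The members and gene lists were chosen with earlier results of these data known. Every member was named, and of each other list up to 4 measured genes with the largest absolute difference in each comparison with PBS, plus partners in a complex described. Genes named outside this rule are said to be so. With 1 array per group there is no p-value, standard deviation or replicate check.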

Additional observations from a re-analysis of the deposited data

How the results depend on the processing

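The members' median kept its sign in LPS against PBS and in PTX against PBS under every alternative, and relative to the median of all genes it lay between -0.70 and -0.51 for LPS and between -1.05 and -0.67 for PTX. The 15 members at least 2-fold lower in LPS against PBS became 8 with a pseudocount of 64, 6 with median centring, 8 with quantile normalization, 8 (of 34 measured) with the mean over all probe sets and 6 (of 30) without _s_at, _x_at and _a_at probe sets. The 16 in PTX against PBS became 10 with a pseudocount of 64 and 10 (of 34) with the mean over all probe sets. In PTX against LPS the 1 lower member became 5 with median centring, 5 with quantile normalization, 2 with a common trimmed mean, 2 without the _s_at, _x_at and _a_at probe sets, and 0 with a pseudocount of 64 or the mean over all probe sets. Of all genes 12.6%, 8.64%, 7.47%, 6.30%, 4.29% and 4.91% were that low in PTX against LPS, in the order of those settings. The 1 higher member there became 2 with a pseudocount of 1 and 0 with a pseudocount of 64, the filter at the 75th percentile, the mean over all probe sets or the restricted probe sets. A larger pseudocount shrinks differences and the restricted settings measure fewer members, and the cause of the other changes was not tested. No paired analysis was possible because each group held 1 array. Nor could leaving out a replicate be tried.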

Other observations

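Genes of chromatin copying and silencing were listed apart from the members, and all 11 were measured. In LPS against PBS 4 of them were at least 2-fold lower (median -0.73), and in PTX against PBS 1 was (median -0.33), where 13.0% and 2.37% of all measured genes were. Dnmt3b, a methyltransferase that sets new methylation, read 55.6 (LPS), 266 (PTX) and 230 (PBS), differences of -1.78 and 0.20, and its other measured probe set gave -0.94 for LPS. Lmnb1, lamin B1 of the nuclear envelope, read 144, 315 and 479 on the LPS, PTX and PBS arrays (-1.63 and -0.58), and its other measured probe set gave -1.47 and -1.51. Dnmt3a, another such methyltransferase, and Suz12, a polycomb subunit, differed by -1.02 and -1.11 for LPS and by -0.14 and -0.33 for PTX, with other probe sets of Suz12 between -1.06 and 0.38 and of Dnmt3a between -2.49 and -0.28 for LPS. Hells, a chromatin remodeller needed for DNA methylation, read 106 (LPS), 81.3 (PTX) and 222 (PBS), differences of -0.97 and -1.29, with other probe sets between -1.08 and -0.12 for PTX. Slbp, which binds histone mRNA, differed by -0.45 and -0.64, but its other measured probe set gave 0.23 and 0.08. Ezh2, the polycomb methyltransferase, differed by -0.42 for LPS and -0.89 for PTX.

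Of 28 listed checkpoint and homologous recombination genes 18 were measured, with medians of -0.43 in LPS against PBS and -0.45 in PTX against PBS. Over all measured genes the medians were -0.08 and 0.01. By the probe sets that stood for them, 1 of the 18 was at least 2-fold lower in LPS and 0 in PTX. Among all measured genes 13.0% and 2.37% were. The 1 lower gene was Atr, the kinase that senses stalled forks, at 121 (LPS), 311 (PTX) and 349 (PBS), differences of -1.41 and -0.16. Its other measured probe set gave -0.98 and -0.21. Eme1, Msh6, Wee1, Brca2 and Rad54l, of repair and the checkpoint, differed by -0.96, -0.83, -0.82, -0.74 and -0.48 for LPS and by -0.65, -0.52, -0.82, -0.62 and -0.66 for PTX. Of 5 measured CDK inhibitors, Cdkn2c, which binds the G1 kinases Cdk4 and Cdk6, was lower, at 118 (LPS), 171 (PTX) and 567 (PBS), with differences of -2.12 and -1.64. Cdkn1a, the p53-responsive inhibitor, read 2899, 1946 and 2498 on the LPS, PTX and PBS arrays (0.21 and -0.36). The inhibitors Cdkn1b, Cdkn2b and Cdkn2d differed by 0.61, 0.09 and -0.11 for LPS and by 0.38, -0.90 and 0.07 for PTX, and the other measured probe set of Cdkn1b gave -0.997 for LPS and 0.20 for PTX.

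A probe set that carries the symbol of Tyms beside another symbol was left out above, and it read 490.2 (LPS), 401 (PTX) and 521 (PBS).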
